A study of Mus musculus with 12 samples.

Results

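Motile cilia are the beating, hair-like projections that move mucus and fluid along the airways. They were followed here through 39 genes of their structure, assembly and control, chosen as a list of gene symbols, of which 38 were measured among 18193 genes on the arrays. Sntn had no probe set with its symbol alone. Total RNA of frozen tissue came from 6 lung tumours that arose spontaneously and from 6 normal control lungs. All came from B6C3F1 mice, a hybrid strain, in a National Toxicology Program bioassay, aged 2 years and given no treatment, and each sample had 1 Affymetrix array. The labels give no histological type for the tumours and do not say that each sample is a separate animal, so the p-values cover only how far these samples scatter, which may be partly technical.

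The core of a motile cilium is the axoneme, a ring of doublet microtubules around a central pair. Dynein arms on the doublets make the force, and radial spokes and the central apparatus regulate the beat. In the lung such cilia stand on ciliated cells of the conducting airways, and the forkhead factor Foxj1 together with RFX factors switches their genes on. Primary cilia, the single signalling cilia of many other cell types, have no dynein arms, spokes or central pair, but use the same intraflagellar transport machinery and the BBSome, a cargo adaptor. The measured genes were divided on this ground into 28 used by motile cilia only, 5 of transport and the BBSome that primary cilia also use, and 5 of use in both kinds of cilia or in the cell at large.

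Genes of the motile axoneme were lower in the tumours almost without exception, whereas genes shared with primary cilia were lower by much smaller amounts. Of the 38 genes 33 fell (adjusted p under 0.05 in limma) and 0 rose, and over all genes tested 17.4% fell and 12.1% rose. That balance depended on the scaling, since 12.8% of all genes fell and 19.1% rose after median centring, when 30 of the 38 cilia genes fell and 1 rose. Of the motile-only genes 27 of 28 fell, all 27 by at least 2-fold, against 10.5% of all genes. No cilia gene rose by 2-fold, against 4.65% of all genes. For 28 of the 38 genes every tumour lay below every normal lung, against 11.7% of all genes, and for 0 every tumour lay above, against 6.74%. In bulk tissue, fewer cells of a type and less RNA per cell cannot be told apart. The difference of a gene is the mean log2(signal + 16) of tumours less that of normal lungs, and its median over the motile-only genes was -2.33, a 5.03-fold lower value, against -0.08 over all genes. Of the 5 shared genes 4 fell, none by 2-fold, with a median difference of -0.69. Differences of the shared genes lay between -0.84 and -0.30, outside the -3.79 to -1.12 of the motile-only genes that fell. The difference between the gene groups was not tested.

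The arrays had been scaled to a trimmed mean of 500, and the median signal over probe sets was 126 to 150 on tumour arrays and 151 to 164 on normal lung arrays. Correlations across probe sets were 0.907 to 0.954 between tumours, 0.932 to 0.966 between normal lungs and 0.868 to 0.919 between a tumour and a normal lung. Normal lungs 2 and 4 stood apart in transcripts typical of liver, which other samples held at lower levels. Albumin (Alb) read 9.89 to 4901 in tumours, against 13843 and 13722 in those lungs and 54.9 to 2069 in the other normal lungs. Apoa1, a plasma apolipoprotein, read 4.1 to 167 in tumours, against 2948 and 1796 in those lungs and 48.7 to 185 in the others. Ttr, the carrier transthyretin, read 12.1 to 1376 in tumours, against 2042 and 3903 in those lungs and 44.8 to 556 in the others. Without these 2 lungs 28 of the 38 cilia genes fell, 25 of them motile-only and 2 shared, with a median difference of -2.15, while 13.3% of all genes fell. Of the 38 cilia genes 35 had a mean above the median signal, 149, in the brighter group.

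**Figure D1:**
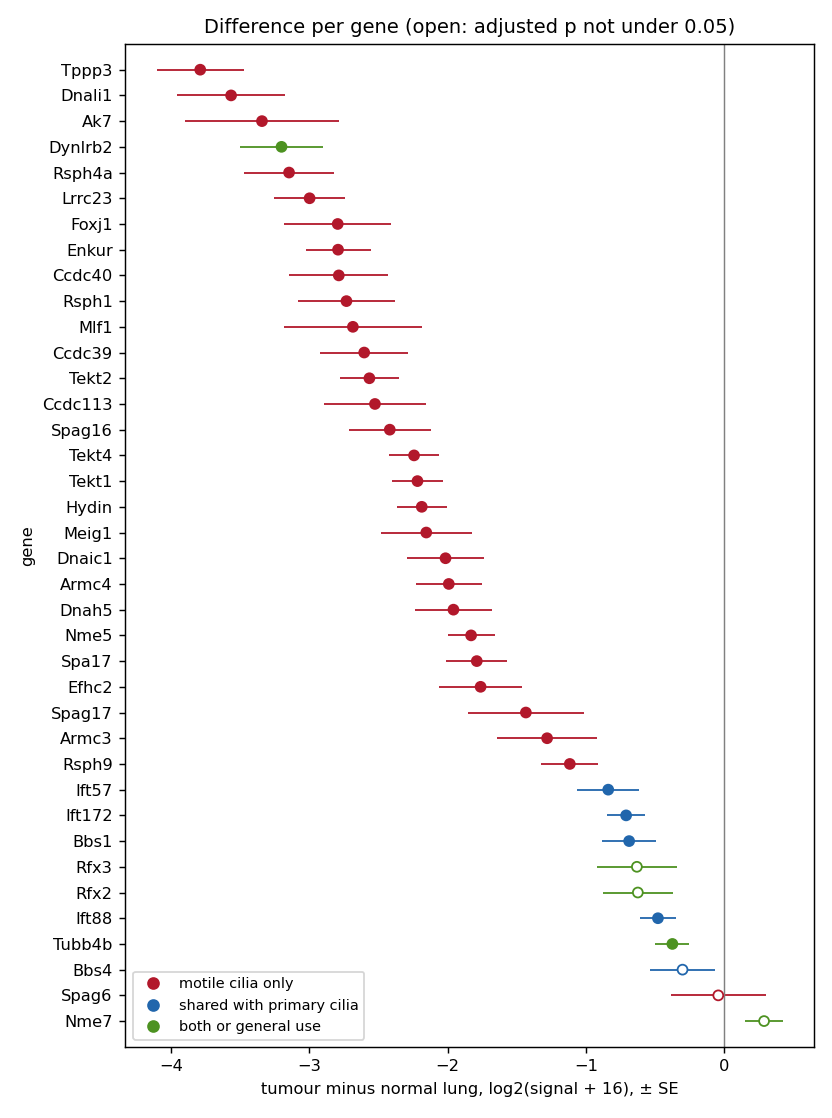
Difference per gene, tumour minus normal lung in log2(signal + 16), with its standard error (6 arrays per group). Red points are motile-only genes, blue points genes shared with primary cilia and green points genes of both or general use. Filled points passed the adjusted p threshold. Tppp3 has the lowest value, -3.79, and Nme7 is the single point above 0, at 0.29.

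Promoter sequences of a few genes show the kind of site through which RFX factors act. RFX factors bind the X-box, a pair of inverted GTTGCC-like sequences, and Foxj1 belongs to the forkhead family, whose members bind TGTTTAC. The stretches below are the 170 bases before a RefSeq start of each gene (build GRCm38.p6, read on the gene's strand). Capitals mark X-box-like matches, single GTTGCC sites and TGTTTAC on either strand. Tekt1 has 2 windows, and only the one with such matches is shown. They are shown because these genes carry such letters and include both genes that fell strongly, such as Dynlrb2 and Lrrc23, and a shared gene, Ift57.
Lrrc23 (chr6:124779728-124779897, minus strand): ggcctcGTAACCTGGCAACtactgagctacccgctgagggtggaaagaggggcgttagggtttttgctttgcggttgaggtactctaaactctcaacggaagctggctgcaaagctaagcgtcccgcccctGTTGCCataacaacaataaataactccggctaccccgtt
Dynlrb2 (chr8:116504845-116505014, plus strand): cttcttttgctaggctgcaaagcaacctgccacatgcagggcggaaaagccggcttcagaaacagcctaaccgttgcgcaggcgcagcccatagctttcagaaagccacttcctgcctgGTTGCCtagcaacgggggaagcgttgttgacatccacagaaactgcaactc
Tekt1 (chr11:72361883-72362052, minus strand): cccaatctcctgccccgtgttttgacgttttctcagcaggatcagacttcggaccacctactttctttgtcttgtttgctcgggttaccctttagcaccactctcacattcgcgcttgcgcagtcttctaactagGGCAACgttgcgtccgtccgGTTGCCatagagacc
Spag16 (chr1:69826800-69826969, plus strand): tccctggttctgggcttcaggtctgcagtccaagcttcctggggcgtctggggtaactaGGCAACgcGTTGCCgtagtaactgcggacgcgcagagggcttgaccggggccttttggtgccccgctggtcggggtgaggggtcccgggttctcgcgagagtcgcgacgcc
Mlf1 (chr3:67373927-67374096, plus strand): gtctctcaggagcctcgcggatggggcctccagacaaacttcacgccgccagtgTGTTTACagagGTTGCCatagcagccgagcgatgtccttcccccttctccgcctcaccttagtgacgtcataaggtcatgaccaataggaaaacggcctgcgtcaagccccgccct
Ift57 (chr16:49699124-49699293, plus strand): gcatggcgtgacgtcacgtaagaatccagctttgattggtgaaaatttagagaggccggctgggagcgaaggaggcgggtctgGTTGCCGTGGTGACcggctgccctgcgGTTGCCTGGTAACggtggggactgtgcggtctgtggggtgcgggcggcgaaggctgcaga

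In windows of 300 bases around the gene start (250 before and 50 after), read on both strands, the single RFX site GTTGCC stood in 18 of the 32 measured cilia genes with a window, or 56.2%, and in 14.7% of the 14452 array genes with one. It stood in 10 of 22 motile-only genes and in 4 of 5 shared genes. The longer X-box-like pattern, GTNNCC and GGNNAC with a spacer of 1 to 3 bases, stood in 7 of 32 cilia genes (21.9%) and in 4.81% of array genes, and it can overlap a single site. Ift57 carried the pattern at 2 places before its start. The forkhead sequence TGTTTAC stood in 2 of 32 cilia genes, Mlf1 and Ak7, or 6.25%, and in 3.4% of array genes. A gene counts once however many windows it has, and a match is only a run of letters.

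Among the regulators Foxj1, the switch of the motile programme, fell and the RFX factors did not pass the test on the probe set that represents them. Foxj1 signals ranged from 14.4 to 197 with a median of 96.6 in tumours, against 475 to 944 with a median of 745 in normal lungs. Every tumour lay below every normal lung, and the lowest was tumour 5. The difference was -2.79 ± 0.39 (SE, n = 6 per group, adjusted p = 7.66e-05). Rfx3, which acts in both kinds of cilia, ranged from 134 to 440 in tumours, against 213 to 508 in normal lungs, with overlapping groups. The Rfx3 difference was -0.63 ± 0.29 (adjusted p = 0.132), and without tumour 4, the highest tumour, it was -0.81 with an adjusted p of 0.0478. It was smaller after quantile normalization (-0.49, adjusted p = 0.218) and median centring (-0.44, adjusted p = 0.263). The second Rfx3 probe set, a dim one, had a difference of 0.12 ± 0.32 (adjusted p = 0.83). Rfx2 ranged from 49.6 to 117 in tumours, against 105 to 221 in normal lungs, again with overlap (-0.63 ± 0.25, adjusted p = 0.0893). The 4 Rfx2 probe sets disagreed, and another one averaged 23.8 in tumours and 191 in normal lungs, a difference of -2.37 ± 0.33 (adjusted p = 8.83e-05).

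All 4 dynein arm genes fell at least 2-fold, with no overlap between the groups. Dnali1, a light intermediate chain of the inner arms, ranged from 10.4 to 164 in tumours with a median of 88.5, against 838 to 1243 in normal lungs with a median of 992. The tumours kept 8.79% of the mean normal signal (-3.56 ± 0.39, adjusted p = 8.87e-06). Armc4, which docks the outer arms, ranged from 32.8 to 118 in tumours, against 264 to 344 in normal lungs (-1.99 ± 0.24, adjusted p = 2.33e-05). Dnaic1, an outer arm intermediate chain, ranged from 21.0 to 95.8 in tumours, against 236 to 351 in normal lungs (-2.02 ± 0.28, adjusted p = 7.73e-05). Dnah5, an outer arm heavy chain whose human mutations cause primary ciliary dyskinesia, averaged 88.5 ± 43.9 in tumours and 364 ± 66.9 in normal lungs (SD, n = 6 each), a difference of -1.96 ± 0.28. Tumour 4 was the highest tumour for each of the 4 genes and tumour 3 the lowest.

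The genes of the axonemal ruler, which sets the spacing of arms and spokes along a doublet, fell as well. Ccdc39 averaged 111 ± 65.3 in tumours and 675 ± 129 in normal lungs (-2.60 ± 0.32, adjusted p = 2.48e-05). Ccdc40, its partner, averaged 64.2 ± 41.2 in tumours and 459 ± 40.4 in normal lungs (-2.79 ± 0.36, adjusted p = 3.85e-05). Ccdc113, another coiled-coil protein of cilia, averaged 44.0 ± 42.7 in tumours and 273 ± 40.7 in normal lungs (-2.53 ± 0.37, adjusted p = 1.17e-04). The groups did not overlap for any of these 3 genes.

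Of 9 genes of the radial spokes and central apparatus 8 fell, all by at least 2-fold. Lrrc23, a radial spoke protein, ranged from 72.9 to 321 in tumours with a median of 134, against 1073 to 1330 in normal lungs with a median of 1222. The tumour mean was 12.6% of the normal mean (-3.00 ± 0.26, adjusted p = 1.02e-06). Hydin, a very large protein of the central apparatus, ranged from 61.9 to 91.2 in tumours, against 307 to 581 in normal lungs, and its tumours were the most alike of the motile-only genes, with a log2 SD of 0.19. Its difference was -2.19 ± 0.18 (adjusted p = 7.27e-07). Nme5, a radial spoke component, ranged from 198 to 454 in tumours, against 876 to 1172 in normal lungs (-1.83 ± 0.17, adjusted p = 2.05e-06).

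The 3 spoke head genes fell by unequal amounts. Rsph4a had a difference of -3.15 ± 0.33, Rsph1 of -2.73 ± 0.35 and Rsph9 of -1.12 ± 0.21 (adjusted p = 9.22e-04), the smallest among the motile-only genes that fell. Tumour 3, the lowest tumour for Rsph4a at 28.5, was the highest for Rsph9 at 399.

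Within the central apparatus, Spag16 fell by 2.42 ± 0.30 on the log2 scale. Of its 4 probe sets 2 fell. The others were dim and did not pass, with differences of 0.31 ± 0.32 and -0.29 ± 0.33. Spag17 fell as well (-1.43 ± 0.42, adjusted p = 0.021), on a dim probe set that read 8.08 in normal lung 1 and 78.7 to 116 in the other normal lungs, and without that lung the Spag17 difference was -1.80 (adjusted p = 9.08e-04). The call was lost without normal lungs 2 and 4 (-1.21, adjusted p = 0.11) and with Eif2s3y, a Y-linked gene, as a covariate (-1.62, adjusted p = 0.0747). Spag6 did not pass (-0.04 ± 0.34, adjusted p = 0.948). Its probe set read under 5 in 5 tumours and 5 normal lungs, so it carries little information in either group. The mouse has a near copy of that gene, Spag6l, which is not in the list and whose probe set averaged 25.5 ± 35.4 in tumours and 366 ± 50.9 in normal lungs (-3.48 ± 0.35, adjusted p = 4.26e-06).

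Tektins and other proteins inside the doublets fell, with Nme7 and Tubb4b set apart. Tekt4 ranged from 64.6 to 140 in tumours, against 480 to 582 in normal lungs (-2.24 ± 0.18, adjusted p = 6.26e-07). Tekt2 ranged from 29.3 to 73.8 in tumours, against 331 to 562 in normal lungs (-2.57 ± 0.21, adjusted p = 7.81e-07), and Tekt1 from 57.4 to 131 in tumours, against 389 to 545 in normal lungs (-2.22 ± 0.19, adjusted p = 8.48e-07). Enkur, a microtubule inner protein, fell by 2.79 ± 0.23 on the log2 scale, and Efhc2, another one, fell by 1.76 ± 0.30 on a probe set under the median signal of all probe sets in both groups.

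Nme7 was not lower. This kinase family protein sits inside doublets and also at centrosomes, and it ranged from 568 to 909 in tumours, against 460 to 590 in normal lungs. The difference was 0.29 ± 0.14 (adjusted p = 0.156), and with arrays centred on their medians it passed as a rise (0.48, adjusted p = 0.0175). Its second probe set, a dim one, had a difference of -0.75 ± 0.39 (adjusted p = 0.188). Tubb4b, a beta tubulin of cilia and of cytoplasmic microtubules, averaged 5638 ± 952 in tumours and 7258 ± 592 in normal lungs. That is a difference of -0.38 ± 0.12 (adjusted p = 0.0366). The call was lost after median centring (-0.19, adjusted p = 0.384), without any 1 of normal lungs 1 to 4 or tumours 1, 3, 4 and 5 (adjusted p up to 0.0807), and with all its probe sets averaged (-0.08, adjusted p = 0.802).

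The remaining ciliated cell genes included the largest differences. Tppp3, a tubulin-binding protein used as a ciliated cell marker, ranged from 239 to 1429 in tumours with a median of 436, against 6232 to 7984 in normal lungs with a median of 6527. Tumour 4 stood highest, and the tumour mean was 8.43% of the normal mean (-3.79 ± 0.31, adjusted p = 7.67e-07). Dynlrb2, a roadblock light chain of dyneins, ranged from 170 to 905 in tumours with a median of 349.6, against 3417 to 4276 in normal lungs with a median of 3543 (-3.20 ± 0.30, adjusted p = 2.27e-06). It was counted among the genes of both or general use, yet its difference was within the range of the motile-only genes.

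Ak7, an adenylate kinase of cilia, varied most between tumours. Its signals in tumours 1 to 6 were 249, 331, 7.63, 496, 62.1 and 137, a log2 SD of 1.63, while normal lungs ranged from 1433 to 1660 with a log2 SD of 0.08. The difference was -3.34 ± 0.56 (adjusted p = 3.94e-04). Mlf1, another ciliated cell marker, ran from 3.53 in tumour 3 to 290 in tumour 4, against 573 to 882 in normal lungs (-2.68 ± 0.50). Spa17, a protein of sperm and cilia, fell by 1.79 ± 0.22 on the log2 scale, and Meig1, a protein of sperm and ciliated cells, had a difference of -2.15 ± 0.33. Armc3 fell less on the probe set that represents it (-1.28 ± 0.36, adjusted p = 0.0164). There tumour 4, at 310, lay inside the normal range of 176 to 374. On that probe set the call was lost without normal lungs 2 and 4 (-1.30, adjusted p = 0.0597). It was also lost with Eif2s3y as a covariate (-0.93, adjusted p = 0.227). The other Armc3 probe set averaged 25.9 in tumours and 158 in normal lungs, a larger fall (-2.20 ± 0.31, adjusted p = 9.02e-05).

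**Figure D2:**
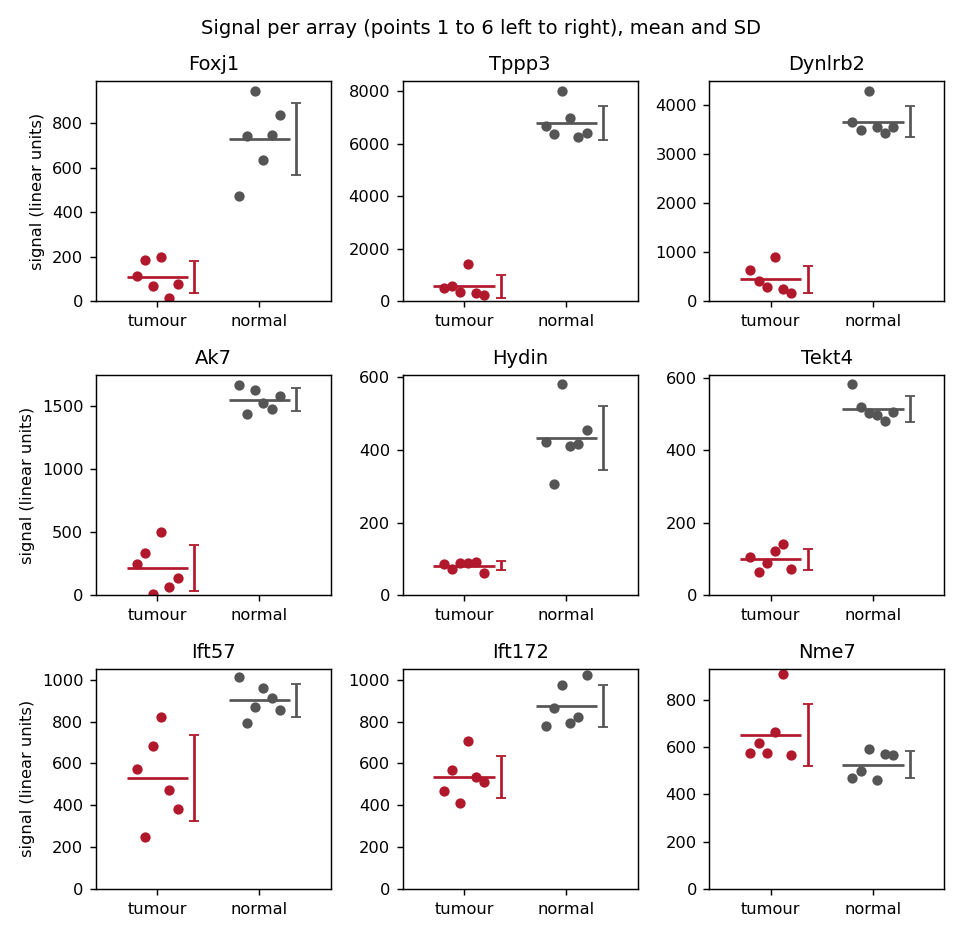
Signal of 9 genes on each array (linear axes from 0), with points for arrays 1 to 6 from left to right, a line for the mean and a bar for the SD (n = 6). Tumours lie below all normal lungs for Foxj1, Tppp3, Dynlrb2, Ak7, Hydin, Tekt4 and Ift172, tumour 4 overlaps the normal lungs for Ift57, and Nme7 has tumours at 568 to 909 and normal lungs at 460 to 590.

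Genes that primary cilia share were lower by less than 2-fold. Ift57, of intraflagellar transport complex B, ranged from 250 to 820 in tumours with a median of 523, against 793 to 1015 in normal lungs with a median of 892. Tumour 4 lay among the normal lungs, and the difference was -0.84 ± 0.22 (adjusted p = 0.0124). The Ift57 call was lost with its probe sets averaged (-0.48, adjusted p = 0.0835) and with Eif2s3y as a covariate (-0.66, adjusted p = 0.17). Ift172, of the same complex, ranged from 413 to 706 in tumours, against 778 to 1023 in normal lungs, with no overlap (-0.71 ± 0.14, adjusted p = 0.00126). Ift88, a core subunit whose loss removes primary cilia in mice, ranged from 290 to 409 in tumours, against 407 to 580 in normal lungs (-0.48 ± 0.13, adjusted p = 0.0153).

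Of the BBSome, which moves membrane proteins through cilia, Bbs1 ranged from 104 to 223 in tumours, against 235 to 332 in normal lungs (-0.69 ± 0.20, adjusted p = 0.0184). Bbs4 averaged 240 ± 73.8 in tumours and 292 ± 60.2 in normal lungs and did not pass (-0.30 ± 0.23, adjusted p = 0.397), although another of its 4 probe sets did (-0.69 ± 0.17, adjusted p = 0.00859). These smaller calls depended on the setting: 2 of the 5 shared genes fell after median centring, and 4 after quantile normalization. The median over all genes was -0.08 as deposited, 0.01 after quantile normalization and 0.11 after median centring, and the median of the shared genes was -0.53 and -0.50 under those scalings.

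The arrays differed in the level of the whole programme. Relative to the mean of normal lungs, the median difference of the 28 motile-only genes was -2.12, -2.16, -3.00, -1.55, -2.55 and -2.60 in tumours 1 to 6, and -0.10 to 0.22 in normal lungs. Tumour 4 was the highest tumour for 22 of the 28 genes and the lowest for 0, while tumour 3 was the lowest for 10 and the highest for 3. Normal lung 3 was the highest normal lung for 17 of the 28. Across all 38 cilia genes the log2 SD was larger among tumours than among normal lungs for 33, against 69.4% of all genes. For 21 of the 28 motile-only genes the tumour mean lay under 149, the median signal of all probe sets, and 10 had a tumour below the offset of 16. The offset shrinks differences between dim signals, and the median over the 38 genes was -2.39 with an offset of 1 and -1.62 with an offset of 64.

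**Figure D3:**
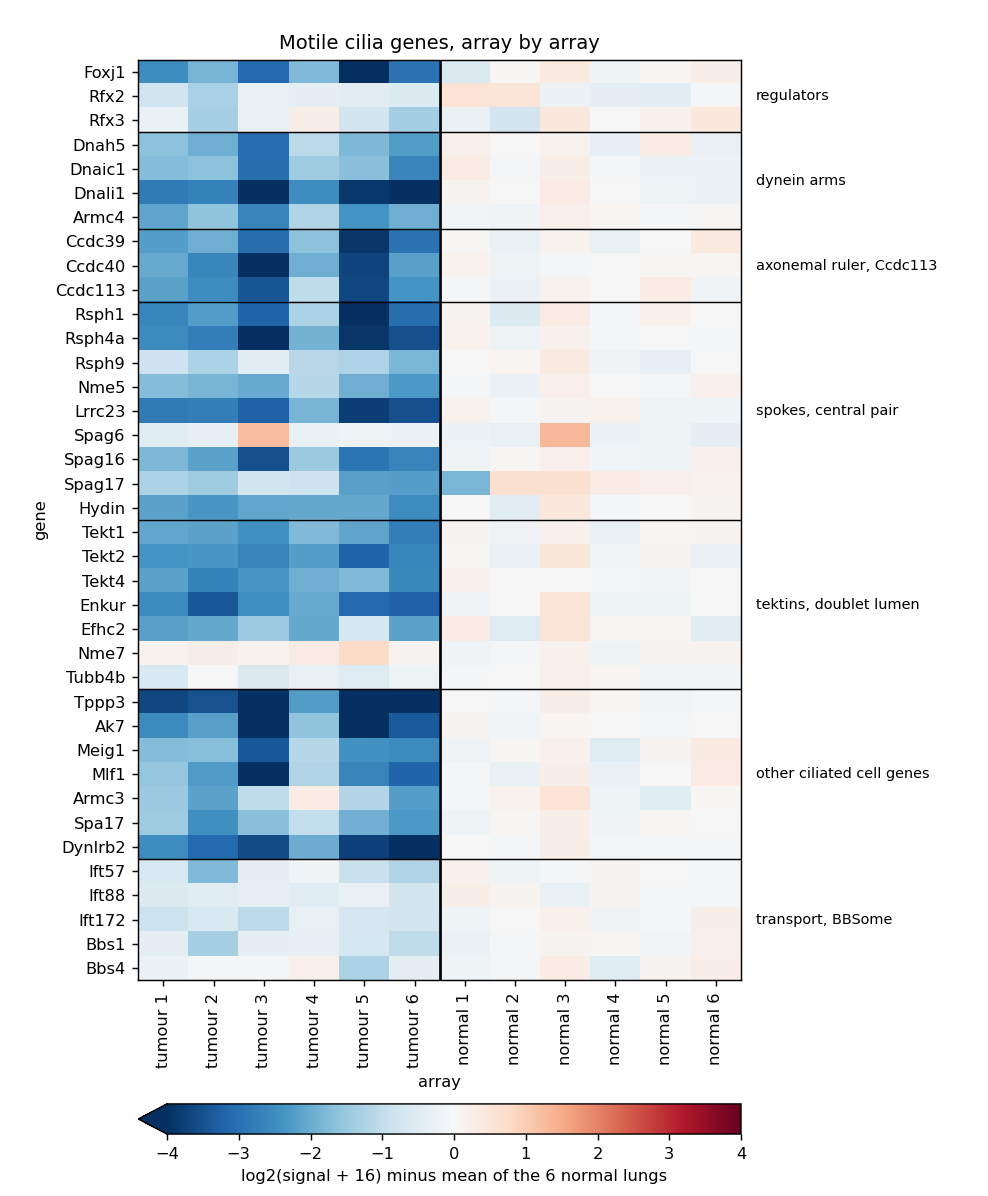
Heat map of log2(signal + 16) minus the mean of the 6 normal lungs, with genes in rows by role and arrays in columns, tumours left of the black line. Blue is lower and red higher, with darkest blue for -4 or below. Tumours are blue in all rows of the dynein arms and rulers and pale in those of transport and the BBSome, and tumour 4 is the palest tumour column.

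Further cilia genes were taken from lists drawn up by function. Of 58 further measured genes of axonemal dyneins, dynein assembly and the axoneme, 44 fell and 0 rose, with a median difference of -2.04, where 17.4% of all genes fell and 12.1% rose. Of 54 further genes of transport, the BBSome and the transition zone at the cilium base, 17 fell, or 31.5%, and 1 rose, with a median of -0.26. Zmynd10, a dynein assembly factor, averaged 10.9 ± 7.61 in tumours and 335 ± 61.2 in normal lungs (-3.73 ± 0.23, adjusted p = 9.83e-08). Dnah12, an inner arm heavy chain, had a difference of -3.21 ± 0.37, and Mns1, a microtubule inner protein, of -2.28 ± 0.21. Of the 10 dynein assembly factors 5 fell, all by at least 2-fold, with differences of -3.73 to -1.17. The 5 that did not pass were Dnaaf2 (0.01 ± 0.18), Dnaaf5 (-0.06 ± 0.14), Dnaaf6 (-0.37 ± 0.40), Ruvbl1 (0.25 ± 0.20) and Ruvbl2 (-0.15 ± 0.17), the last 2 being chaperones of many complexes besides dynein. The median of the 10, -0.77, lay in the gap between those that fell and the others, where no factor stood. The Dnaaf6 probe set was dim, with means of 20.4 in tumours and 31.2 in normal lungs. Of the 28 other transport genes 7 fell, with Traf3ip1 at -1.61 ± 0.17, and Ift122 rose (0.52 ± 0.17, adjusted p = 0.0439). That is 25% of them, against 17.4% of all genes. Of 10 other BBSome-related genes 2 fell, Bbs7 (-0.94 ± 0.20) and Bbs9 (-0.81 ± 0.21), both BBSome subunits, which is 20% and near the share of all genes. Of 16 transition zone genes 8 fell, none by 2-fold, among them Ahi1 (-0.97 ± 0.22) and Tmem231 (-0.73 ± 0.17), both part of the barrier at the cilium base.

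**Figure D4:**
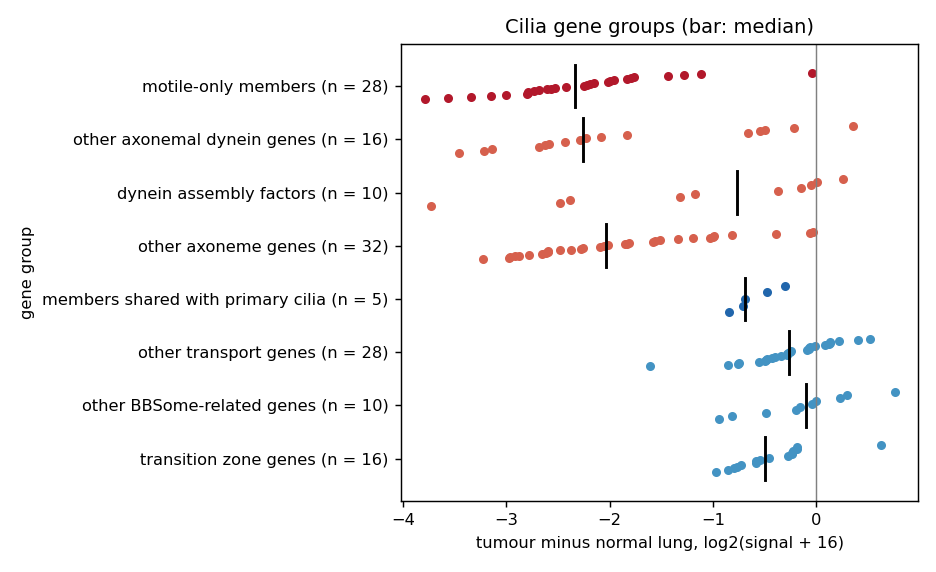
Difference of each gene, tumour minus normal lung in log2(signal + 16), by gene group, with a black bar at each median. Medians are -2.33 for motile-only genes, -2.26 for other axonemal dynein genes, -0.77 for dynein assembly factors and -2.04 for other axoneme genes, and they are -0.69 for shared genes, -0.27 for other transport genes, -0.10 for other BBSome-related genes and -0.50 for transition zone genes.

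Of 13 measured genes of the multiciliation programme, by which a cell comes to make many basal bodies, 5 fell and 2 rose, where 17.4% of all genes fell and 12.1% rose, so the count of rises is near the general share. Myb, a transcription factor early in that programme, averaged 60.9 ± 49.6 in tumours and 931 ± 90.9 in normal lungs (-3.88 ± 0.36, adjusted p = 1.94e-06), and Trp73, an upstream activator of Foxj1, fell by 1.69 ± 0.31 on the log2 scale. Cdkn1c, a cell cycle inhibitor also made in other cells, fell as well (-2.02 ± 0.21). Tfdp1, the dimer partner of E2F factors in dividing cells too, rose (0.80 ± 0.16, adjusted p = 0.00178), and so did Plk4, the kinase of centriole duplication (0.63 ± 0.19, adjusted p = 0.026). Of 14 further tubulins 4 fell, or 28.6% against 17.4% of all genes, and 1 rose, a smaller share than the 12.1% of all genes. Tubb4a (-1.95 ± 0.25) and Tuba1a (-1.30 ± 0.21) fell, and Tubb2b (1.33 ± 0.28) rose.

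Markers of several other cell types moved with the cilia genes, and their counts stand against 17.4% of all genes that fell and 12.1% that rose. Of 8 markers of club cells, the secretory neighbours of ciliated cells, 5 fell, and their summed signal was 39930 to 112331 in tumours and 160851 to 231219 in normal lungs. The median difference of the 8 was -1.95, and 4 fell by at least 2-fold, against 10.5% of all genes. Scgb1a1, the main club cell secretoglobin, had the smallest difference of the 5 that fell, -0.92 ± 0.28. The largest was that of Cyp4b1, -4.03 ± 0.35. All 8 endothelial markers fell, with a summed signal of 2899 to 9222 in tumours and 46430 to 64204 in normal lungs. All 6 smooth muscle markers fell, with sums of 2984 to 8326 in tumours and 15357 to 27648 in normal lungs. Of 8 markers of type I cells 6 fell, with sums of 24403 to 60812 in tumours and 84937 to 103621 in normal lungs. Of 7 type II markers 0 fell and 3 rose (109069 to 241921 in tumours and 118787 to 164436 in normal lungs). Of 8 general epithelial markers 5 rose, such as Epcam (2.30 ± 0.18), with sums of 37419 to 141937 in tumours and 22680 to 26003 in normal lungs. Of 6 basal markers 1 rose, Krt5, near the general share, with sums of 256 to 2206 in tumours and 301 to 352 in normal lungs. The Krt5 call was close to the threshold (0.79 ± 0.27, adjusted p = 0.0489), on a dim probe set averaging 84.3 in tumours and 43.9 in normal lungs. The sum of 2206 was that of tumour 2, where Aqp3 alone read 1985, and Aqp3 did not pass (adjusted p = 0.174). Only 1 of the 6 basal markers, Aqp3, had a mean above the median signal in its brighter group. No measured marker of these lists read 0 on any array, but neither did dim ones such as Krt15 (2.88 to 6.23 in tumours). Readings above 0 therefore do not show that a cell type was present. The part of cell composition in the cilia gene differences was not tested.

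Sex-linked transcripts also differed, and the Y-linked gene Eif2s3y read 740 to 1638 in tumours 1, 2, 3 and 5, and 2.09 to 27.4 in the other 2 tumours and all normal lungs. The X-linked transcript Xist went the other way. It read 47.1 to 109 in tumours 1, 2, 3 and 5, 12621 and 10184 in tumours 4 and 6, and 7877 to 11265 in normal lungs. The labels do not give sex. Comparing tumours 4 and 6 with the 6 normal lungs, 27 of the 38 cilia genes fell, 25 of them motile-only and 1 shared, while 13.8% of all genes fell. Of the motile-only genes Spag17 (-1.51, adjusted p = 0.145) and Armc3 (-0.95, adjusted p = 0.256) no longer passed, and among the shared genes Ift88 did. In that comparison the median of the motile-only genes was -2.12 and that of the shared genes -0.60. The part of sex in the other differences was not tested.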

How the data were processed

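The authors deposited 1 value per probe set and array, an intensity (signal) on a linear scale. Per the submitters' processing notes, MAS5 made these values. The MAS5 version is not given in the sources used here. The deposited columns have a 2% trimmed mean of 500 on every array. The files hold 45101 probe sets, of which 64 controls were dropped. In the platform's annotation 34945 probe sets had 1 symbol, 932 several and 9160 none. A gene was represented by the single-symbol probe set with the highest mean log2(signal + 16) over the 12 arrays, which gave 18193 genes. Of the cilia genes 13 had more than 1 probe set. Among the 24 probe sets that did not represent their gene 8 fell and 0 rose, and the share over all genes was not counted.

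Tumours (n = 6) and normal lungs (n = 6) were compared with limma 3.58.1 in R 4.3.3 on log2(signal + 16), with an intensity trend and Benjamini-Hochberg adjustment over all 45037 probe sets tested; adjusted p under 0.05 was called. The fit code was run on simulated data with independent normal values and fixed shifts, which checks the code and not the calls reported here. Summaries used Python 3.11.15. Detection calls were not used here. The number of arrays limits the precision. Promoter windows came from RefSeq, build GRCm38.p6.

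The cilia genes and the 17 other lists were chosen with earlier results of these data known. All cilia genes could be named, and from each other list up to 4 with the smallest adjusted p, apart from a few set beside them for contrast (all dynein assembly factors that did not pass, Ift122, Plk4, Scgb1a1, Spag6l and 3 liver transcripts), which were picked once their values were known. The alternatives were other offsets, scalings, filters, probe set rules, arrays left out, Eif2s3y, array weights and a replicate block. The main fit did not pair samples by replicate number. Deviations from the group mean, correlated between same-numbered tumours and normal lungs, gave -0.02 to 0.02. Such values do not settle whether any of these samples came from the same animal.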

Additional observations from a re-analysis of the deposited data

Results flagged for a closer look

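In 7 of 76 groups of 6 arrays 1 array stood far from the others. The rule flags about 5% of groups of independent, normally distributed values. These are linear signals of genes read on the same arrays, so that rate need not hold for them. Spag6 read 39.1 in tumour 3 and 1.0 to 4.6 in the other tumours, and 43.5 in normal lung 3 and 2.34 to 4.42 in the other normal lungs. Spag17 read 8.08 in normal lung 1 and 78.7 to 116 in the others. Normal lung 3 was also high for Enkur, at 1038 against 619 to 725 in the other normal lungs, and for Dynlrb2, at 4276 against 3420 to 3640. Tumour 5 was high for Nme7, at 909 against 568 to 664 in the other tumours, and low for Bbs4, at 109 against 221 to 329.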

How the results depend on the processing

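Over 25 settings, 902 of 947 single-gene values kept their direction and their side of the threshold, 33 lost the call, 5 gained it and 7 changed sign. With 1 array left out at a time, 32 to 33 cilia genes fell and 0 rose, with a median of -2.18 to -1.88, and 27 motile-only and 4 shared genes fell each time. The median was -1.62 with an offset of 64. After median centring 1 cilia gene rose (Nme7) and 2 shared genes fell. Shared genes that fell numbered 1 without the tumours with Eif2s3y, 1 with Eif2s3y as a covariate and 2 without normal lungs 2 and 4. The Spag6 difference changed sign to 0.033 after quantile normalization and 0.14 after median centring, and ran from -0.30 without tumour 3 to 0.22 without normal lung 3, with 0.04, 0.0092 and 0.0021 without tumours 1, 2 and 4. The Nme7 difference was -0.23 with its probe sets averaged. With a replicate block 31 cilia genes fell, 27 motile-only and 3 shared, and the Tubb4b (adjusted p = 0.0789) and Ift88 (adjusted p = 0.0533) calls were lost. The causes of these changes were not tested. Signals near the offset limit how large a measured difference can be.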

Other observations

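Of 14 measured genes of Hedgehog signalling and the primary cilium 8 fell and 0 rose, where 17.4% of all genes fell and 12.1% rose, with a median difference of -1.10. Hhip, a Hedgehog-binding inhibitor, had a difference of -2.76 ± 0.40, Evc, a protein of the cilium base, of -1.81 ± 0.32, and Ptch1, the Hedgehog receptor and a target of the pathway, of -1.41 ± 0.26. Pkd1, whose product polycystin-1 is found in primary cilia, had a difference of -1.40 ± 0.15. These named genes were picked as those of the list with the smallest adjusted p. Their larger differences than those of the shared transport genes therefore follow in part from the choice. Of the 14 genes 6 did not pass, and 3 had a difference above 0, up to 0.48. The difference between the lists was not tested.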
